A study of Mus musculus with 6 samples.

Results

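miR-128 was followed in small RNA libraries of mouse spinal cord. Its members were taken by name, as the rows of the deposited miRNA table that begin with mmu-miR-128-, and 3 of the 1482 rows did so: mmu-miR-128-3p, mmu-miR-128-1-5p and mmu-miR-128-2-5p. All 3 passed the filter on low counts. The 6 libraries fall into an SCI (spinal cord injury) group and a control group of 3 each, from 6 mice per the study's design text. SCI mice had a laminectomy and then a moderate contusion of the cord at the T10 level, made by a 10 g weight falling 20 mm. Control mice had the laminectomy at T10 alone. Antibiotics and bladder massage were given daily after surgery. All were killed on day 2, and about 1 cm of cord around the site was taken. The labels used here name no strain, sex or age.

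miR-128 is among the miRNAs most enriched in brain, where it is made mainly by neurons. A miRNA hairpin is cut into a duplex, and usually 1 strand is kept in Argonaute as the guide while the other is degraded. In miR-128 the guide is the 3p strand. Mice that lack it in neurons become hyperexcitable and have seizures, which is why it is described as a brake on neuronal excitability. A miRNA finds its targets mainly through its seed, bases 2 to 8.

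The mature strands are printed below 5′ to 3′ with the seed in capitals, from RefSeq on GRCm38.p6, the assembly of mm10. They show why the 3p row cannot be split by gene and the 5p rows can.

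miR-128-3p: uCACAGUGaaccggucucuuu

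miR-128-1-5p: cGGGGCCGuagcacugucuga

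miR-128-2-5p: gGGGGCCGaugcacuguaagaga

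Both hairpins give the same 3p strand, so its reads cannot be assigned to either. The 5p strands share their seed but differ at 5 of the 21 positions they have in common. From miR-128-1-5p to miR-128-2-5p, counted from 1 at the 5′ end, these are C1G, U9A, A10U, C18A and U19A. Among 1671 other mature names of the RefSeq table, compared without gaps at small shifts, the nearest to each 5p strand was the other 5p strand, and the nearest to the 3p strand was miR-25-3p at 6 mismatches. Of all 1679 names in that table, 1 had the seed CACAGUG, miR-128-3p itself.

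The hairpins are shown with both mature strands in capitals, since their 5p and 3p products are compared below.

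Mir128-1: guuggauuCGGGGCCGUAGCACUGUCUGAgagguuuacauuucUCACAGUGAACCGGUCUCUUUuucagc

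Mir128-2: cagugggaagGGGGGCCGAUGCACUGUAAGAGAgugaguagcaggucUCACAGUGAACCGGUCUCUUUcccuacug

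Mir128-1 lies on the plus strand at chr1:128202361-128202430, inside R3hdm1 (ENSMUSG00000056211.13) and on its strand. Mir128-2 lies on the minus strand at chr9:112118636-112118711, inside Arpp21 (ENSMUSG00000032503.18), also on its strand. Arpp21 encodes a phosphoprotein of neurons, and R3hdm1 a protein with a predicted nucleic acid binding domain. In GENCODE M21 no exon of either host overlaps the hairpin. Mir128-1 is intronic in 2 of 16 R3hdm1 transcripts and Mir128-2 in 9 of 31 Arpp21 transcripts, the others ending outside the hairpin.

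The labels need care before any direction is read. In the deposited table, columns headed Normal belong to the SCI-labelled samples, and columns headed Control to the control-labelled ones. miR-21a-5p, which is widely reported to rise in injured tissue, averaged 12003 ± 774 CPM (read counts scaled to a common library total) in the SCI-labelled and 100083 ± 27262 CPM in the control-labelled libraries (SD, n = 3 each). The neutrophil miRNA miR-223-3p averaged 8.45 ± 2.54 CPM in the SCI-labelled and 114 ± 18.6 CPM in the control-labelled libraries (SD, n = 3 each). Both go against the labels, so every direction below is that of the library labels as deposited. Total counts were 7100472 to 8889977 in the SCI-labelled and 5568491 to 7360149 in the control-labelled libraries. Control-labelled library 3 stood apart from the other two of its group, and calls that rest on it are named.

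miR-128-3p was higher in every SCI-labelled library than in any control-labelled one. It had 103111, 70594 and 108206 reads in SCI-labelled libraries 1, 2 and 3, against 27866, 26814 and 31705 reads in control-labelled libraries 1, 2 and 3. As a share of all miRNA reads this was 1.31%, 0.994% and 1.22% in the SCI-labelled libraries and 0.423%, 0.482% and 0.431% in the control-labelled libraries. The SCI-labelled values spread most through library 2, which was lowest, and the control-labelled values lay close together.

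On the scale used for testing, CPM after TMM scaling (trimmed mean of M values, which adjusts for a few rows taking many reads), miR-128-3p stood at 12777, 10943 and 12258 CPM in SCI-labelled libraries 1, 2 and 3. In control-labelled libraries 1, 2 and 3 it stood at 4462, 4854 and 3733 CPM. The group means were 11993 ± 945 and 4349.9 ± 569 CPM (SCI-labelled, then control-labelled; SD, n = 3 each). That is 2.76-fold higher in the SCI-labelled group, a log2 fold change of 1.46 with SE 0.18 and a 95% interval of 1.05 to 1.87 (edgeR quasi-likelihood test, adjusted p = 0.00058 over 614 rows).

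Changes were common in these libraries, which sets the weight of that call. Of the 614 rows, 39.4% passed the test, 16.3% as higher in the SCI-labelled group. In 51.3% the groups did not overlap, and in 23.3% they did not overlap with the SCI-labelled group higher. Within this background the fold change of miR-128-3p was the 15th highest of 614 and its p-value the 25th lowest. The median fold change of all rows moved by 0.11 on the log2 scale between TMM and upper quartile scaling. Relative to that median, miR-128-3p was higher by 1.53 with TMM, 1.54 with the upper quartile and 1.55 with library totals alone. Scaling moves all rows by nearly the same amount. That these values lie close together therefore follows from the measure and is no further support.

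miRNAs of other cell types differed between the groups as well. In bulk tissue a change in the number of neurons and a change in the RNA of each neuron cannot be told apart. The leukocyte list summed to 723 to 739 CPM in the SCI-labelled and 2135 to 3329 CPM in the control-labelled libraries, with 5 of 6 tested members lower. The erythroid list summed to 2481 to 5231 CPM in the SCI-labelled and 9426 to 32718 CPM in the control-labelled libraries, with 4 of 4 lower. The fibroblast list summed to 555 to 1055 CPM in the SCI-labelled and 1830.3 to 3299 CPM in the control-labelled libraries. Of its members, 3 of 3 were lower. Over all 614 rows, 142 were called lower. Of the oligodendrocyte (5 tested), astrocyte (3), endothelial (2) and skeletal muscle (4) lists, 0 members passed with edgeR, DESeq2 or limma voom, and 0 had an edgeR p below 0.05 before adjustment. Without control-labelled library 3 edgeR called 1 oligodendrocyte, 2 astrocyte and 2 skeletal muscle members higher and 1 endothelial member lower. Summed levels overlapped between the groups for each of these. The oligodendrocyte list summed to 11804 to 12570.3 CPM in the SCI-labelled and 10222 to 13828 CPM in the control-labelled libraries, and the astrocyte list to 4326 to 5736 CPM in the SCI-labelled and 3871 to 7693 CPM in the control-labelled libraries. The endothelial list summed to 16412 to 18789 CPM in the SCI-labelled and 12211 to 28514 CPM in the control-labelled libraries. The skeletal muscle list summed to 9817 to 20423 CPM in the SCI-labelled and 8283 to 37774 CPM in the control-labelled libraries. No member of these lists that was in the table stood at 0 in any library. With the leukocyte, erythroid and muscle lists and miR-21a left out of the totals, miR-128-3p had a log2 fold change of 1.45. Leaving rows out changes the totals and the fit, and cannot show how much these cell types contributed. Their part in the result was not tested.

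By abundance, miR-128-3p ranked 19, 23 and 23 among all rows in SCI-labelled libraries 1, 2 and 3, and 38, 36 and 38 in control-labelled libraries 1, 2 and 3. Its rank in every SCI-labelled library was thus ahead of its rank in every control-labelled one. Reads per miRNA also depend on how well each sequence takes the adapters, so ranks compare libraries better than they compare miRNAs.

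**Figure D1:**
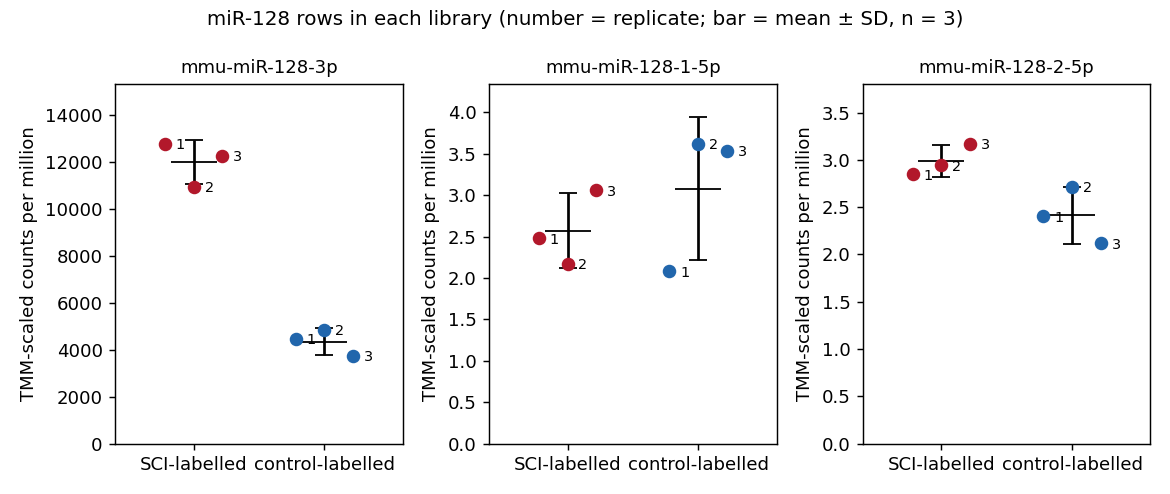
TMM-scaled CPM (y axes, each starting at 0) of the 3 miR-128 rows in the SCI-labelled and control-labelled libraries; points are libraries numbered by replicate, bars the mean ± SD (n = 3). The 3p row lies between 10943 and 12777 CPM in the SCI-labelled libraries and between 3733 and 4854 CPM in the control-labelled ones, while both 5p rows stay between 2.08 and 3.62 CPM.

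The 5p strands, the discarded side of each duplex, did not follow the 3p strand. miR-128-1-5p, from the hairpin in R3hdm1, had 20, 14 and 27 reads in SCI-labelled libraries 1, 2 and 3, against 13, 20 and 30 reads in control-labelled libraries 1, 2 and 3. The groups overlapped. Its log2 fold change was -0.25 (SE 0.34, 95% interval -1.02 to 0.52, edgeR adjusted p = 0.59).

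miR-128-2-5p, from the hairpin in Arpp21, had 23, 19 and 28 reads in SCI-labelled libraries 1, 2 and 3, against 15, 15 and 18 reads in control-labelled libraries 1, 2 and 3. Its groups did not overlap after TMM scaling, at 2.85 to 3.17 CPM in the SCI-labelled and 2.12 to 2.72 CPM in the control-labelled libraries. They did overlap on the authors' deposited TPM, which is scaled by library total only, at 2.68 to 3.15 in the SCI-labelled and 2.27 to 2.69 in the control-labelled libraries. The log2 fold change was 0.32 (SE 0.29, 95% interval -0.35 to 0.98, edgeR adjusted p = 0.42).

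Neither 5p row passed the test, and each has too few reads to show a small change. 95% Wilson intervals of counting ran from 1.15 to 5.82 TPM for miR-128-1-5p and from 1.38 to 4.55 TPM for miR-128-2-5p over the 6 libraries. Even so, the upper ends of both fold change intervals, 0.52 and 0.98, lie below the lower end for miR-128-3p, 1.05. A change of the 5p strands as large as that estimated for the 3p strand was therefore outside their intervals.

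The balance of strands within a library needs no scaling between libraries, but it is formed from the counts given above. With the 3p row higher and neither 5p row called, a lower 5p share in the SCI-labelled group follows from those counts. It is therefore a description and no further support. Both 5p rows together made up 0.0417%, 0.0467% and 0.0508% of miR-128 reads in SCI-labelled libraries 1, 2 and 3. In control-labelled libraries 1, 2 and 3 they made up 0.1004%, 0.130% and 0.151%. The groups did not overlap, as in 51.3% of the 614 single rows. In how many other hairpins the shares do not overlap was not counted. The highest counting interval of an SCI-labelled library ended at 0.0661%, and the lowest of a control-labelled one began at 0.0695%. These intervals leave out differences between mice and treat each read as independent.

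**Figure D2:**
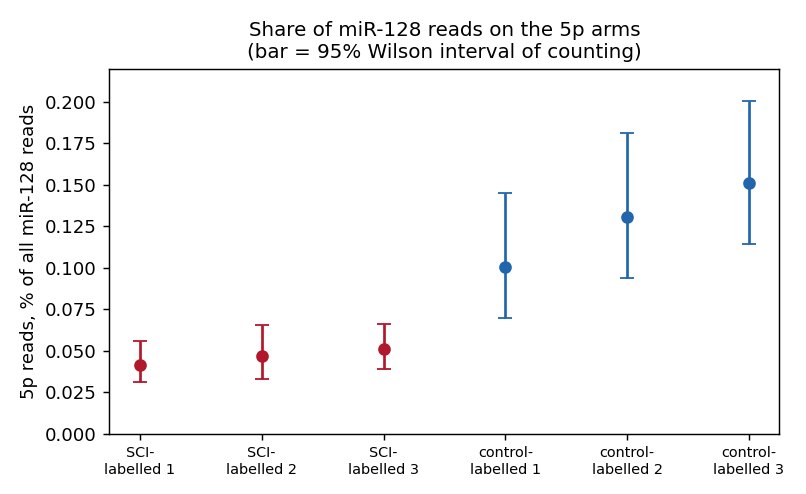
Reads of both miR-128 5p rows as a percentage of all miR-128 reads in each library (y axis from 0), with 95% Wilson intervals that cover counting error only. The 3 SCI-labelled libraries lie between 0.0417% and 0.0508%, below the 3 control-labelled libraries at 0.1004% to 0.151%.

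Put as reads, 2398, 2139 and 1967 reads of the 3p strand stood against each 5p read in SCI-labelled libraries 1, 2 and 3. In control-labelled libraries 1, 2 and 3 there were 995, 766 and 661. The mean 5p share was 0.0464% ± 0.00457 in the SCI-labelled and 0.127% ± 0.0255 in the control-labelled group (SD, n = 3 each; exact two-sided permutation p = 0.1, the smallest that 3 against 3 allows).

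A test over all hairpins was added after the values were seen and uses the same counts, so its direction is no further support. For 167 hairpins or groups of hairpins sharing a mature strand, edgeR's diffSpliceDGE asked whether the rows of a hairpin changed by different amounts. miR-128 passed with an adjusted p of 0.00011, and its p-value was 3rd lowest of the 167. Its 3p log2 fold change exceeded the mean of its 5p rows by 1.43. Unequal change of strands was frequent, however, with 29.9% of the hairpins past this test. Among the 42 whose most abundant row was itself called higher in the SCI-labelled group, as in miR-128, 23 passed, or 54.8%. Over 13 alternatives the gap ran from 1.31 to 1.55 and the adjusted p from 0.00011 to 0.0046. PCR copies were not marked by molecular identifiers, so how many molecules the 5p reads stand for is unknown.

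The 5p rows are the only reads that tell the hairpins apart, and a shift between the host genes was not detectable at this depth. Summed over 3 libraries, miR-128-1-5p had 61 reads and miR-128-2-5p 70 reads in the SCI-labelled group. In the control-labelled group the sums were 63 and 48 reads, with the strand from R3hdm1 first. The log2 ratio of the R3hdm1 strand to the Arpp21 strand was -0.20, -0.44 and -0.05 in SCI-labelled libraries 1, 2 and 3, against -0.21, 0.42 and 0.74 in control-labelled libraries 1, 2 and 3. The groups overlapped, and the means of -0.23 ± 0.20 in the SCI-labelled and 0.32 ± 0.48 in the control-labelled group differed by -0.55 (SD, n = 3 each; exact two-sided permutation p = 0.3). From which hairpin the 3p reads of either group came was not measured.

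Other miRNAs of neurons were set beside miR-128-3p to see whether it moved as they did. The neuronal list held 16 miRNAs other than miR-128, all tested: 7 were higher in the SCI-labelled group, 1 lower and 8 did not pass. The median log2 fold change of the list was 0.67, against -0.07 over all rows. Of all 614 rows, 39.4% were called and 16.3% were called higher. The estimate for miR-128-3p (1.46) was close to that of the highest member, miR-135b-5p (1.44), and in 8 of 18 alternatives at least 1 member was above it.

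The members with the highest fold changes were close to miR-128-3p. miR-135b-5p was 2.72-fold higher (log2 1.44, SE 0.28), at 77.9 ± 4.17 CPM in the SCI-labelled and 28.5 ± 10.1 CPM in the control-labelled libraries (SD, n = 3 each). miR-218-5p, the miRNA of motor neurons, was 2.68-fold higher (log2 1.42, SE 0.21). miR-129-5p was 2.40-fold higher (log2 1.26) and miR-153-3p, which targets presynaptic proteins, 2.37-fold (log2 1.24). Adjusted p-values of these by edgeR ran from 0.0013 to 0.020.

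Smaller positive fold changes passed for miR-135a-5p (log2 0.88), miR-7b-5p (0.76) and miR-9-5p (0.58), which neural progenitors and neurons both make. The lower member was miR-212-3p (-0.91), whose transcript is induced by neuronal activity. miR-132-3p, made from the same transcript, had a log2 fold change of -0.09 and did not pass. The others that did not pass were miR-137-3p (0.79), miR-129-1-3p (0.72), miR-138-5p (0.61), miR-7a-5p (0.44), miR-129-2-3p (0.26), miR-9-3p (-0.46) and miR-124-3p (-0.52).

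Several of these calls did not hold under all 18 alternatives. That of miR-135a-5p was lost in 11, with an adjusted p of 0.067 to 0.16 on leaving out any library but control-labelled 3. It was also lost with library totals alone (0.11), limma on log2 TPM (0.082 to 0.089), the replicate block (0.051) and the leukocyte, erythroid, muscle and miR-21a rows left out (0.053). For miR-9-5p 10 alternatives ended the call, with 0.069 to 0.15 on leaving out any library but control-labelled 3, 0.13 with library totals alone, 0.092 to 0.10 with limma on log2 TPM and 0.0503 with those rows left out. That of miR-153-3p was lost without SCI-labelled 1 (log2 1.16, 0.068) or 3 (1.22, 0.071), at folds close to the full one. That of miR-212-3p was lost in 7, at -0.82 to -0.92 without any one SCI-labelled library (0.098 to 0.11), with limma on log2 TPM (0.056 to 0.065) and with the replicate block (0.058).

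Other members passed only under some alternatives. miR-129-1-3p did so in 5: without control-labelled 1 (log2 1.03), with RLE scaling (adjusted p = 0.049), upper quartile scaling (0.028), no filter (0.036) and DESeq2 (0.031). miR-137-3p did so in 3: without control-labelled library 3 (log2 1.49), with no filter (0.78) and with limma voom (1.26). miR-138-5p did so in 3: without control-labelled library 3 (0.94), with upper quartile scaling (0.74) and with limma voom (0.77). miR-124-3p did not pass, and stood at 0.23 without control-labelled library 3. The count of higher members was 4 without SCI-labelled library 1 or 3, and 9 without control-labelled library 3. For miR-128-3p the call held on leaving out each of the 6 libraries, with a log2 fold change of 1.41 to 1.58.

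**Figure D3:**
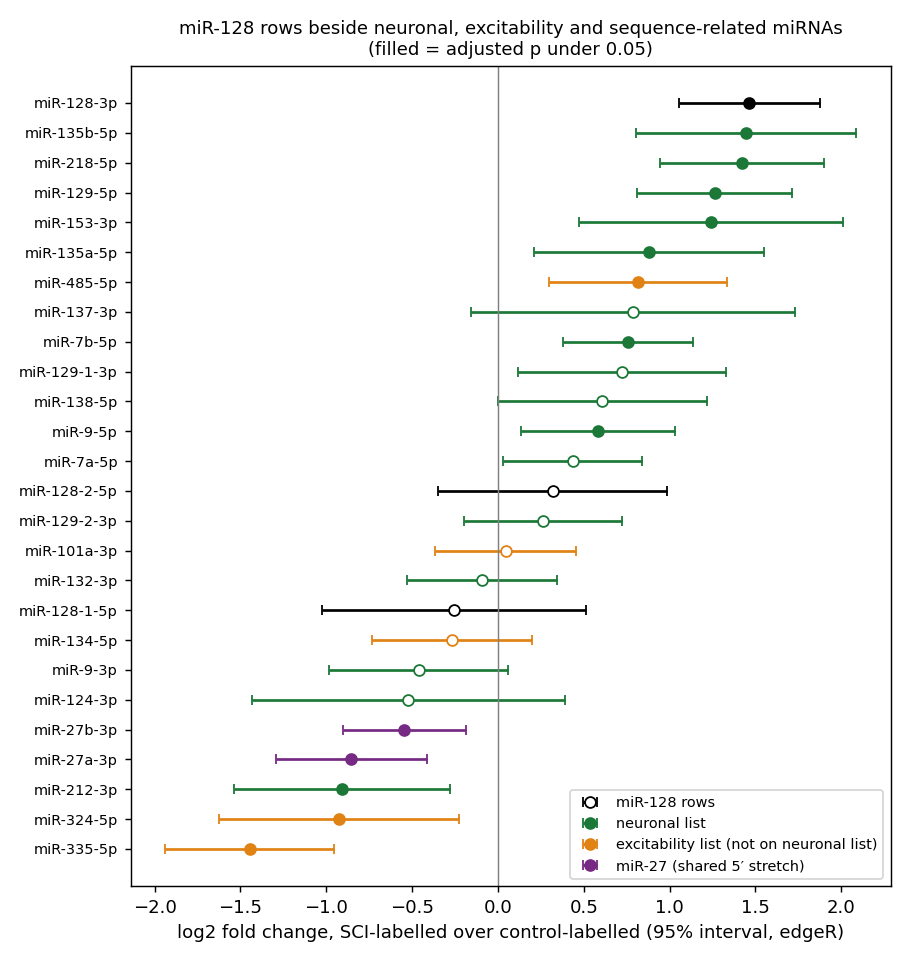
Log2 fold change of SCI-labelled over control-labelled libraries (x axis) with its 95% interval for the miR-128 rows and the listed miRNAs (y axis, sorted); filled points passed the edgeR test at an adjusted p of 0.05, open points did not. miR-128-3p, at 1.46, lies close to miR-135b-5p and miR-218-5p at the high end, while its 5p rows at 0.32 and -0.25 have intervals that include 0.

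Ratios within a library gave the comparison with other neuronal miRNAs without any scaling. The log2 ratio of miR-128-3p to the geometric mean of the 16 members was 3.88, 3.81 and 4.01 in SCI-labelled libraries 1, 2 and 3, against 3.08, 3.45 and 2.48 in control-labelled libraries 1, 2 and 3. The groups did not overlap. How many other rows would separate in the same ratio was not counted. By CPM, 23.3% of the 614 rows did not overlap with the SCI-labelled group higher. The mean ratios of miR-128-3p were 3.90 ± 0.11 in the SCI-labelled and 3.00 ± 0.49 in the control-labelled group (SD, n = 3 each). They differed by 0.90 (exact two-sided permutation p = 0.1, the smallest possible). On leaving out single libraries this difference ran from 0.63, without control-labelled library 3, to 1.12, without control-labelled library 2.

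The result depended on which neuronal miRNA was used. Against miR-124-3p, a miRNA characteristic of neurons, the log2 ratio was 4.002, 3.86 and 3.92 in SCI-labelled libraries 1, 2 and 3, and 2.76, 2.74 and 0.89 in control-labelled libraries 1, 2 and 3. These groups did not overlap (difference 1.79, exact two-sided permutation p = 0.1), and the difference was 1.17 without control-labelled library 3. Ratios of other rows to miR-124-3p were not counted either. miR-124-3p itself had 2008 CPM there, while control-labelled libraries 1 and 2 had 660.03 and 725 CPM.

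Against miR-218-5p the log2 ratio was -0.74, -0.67 and -0.81 in SCI-labelled libraries 1, 2 and 3, and -1.02, -0.29 and -1.01 in control-labelled libraries 1, 2 and 3. Here the groups overlapped, with a difference of 0.03 (exact two-sided permutation p = 1) and -0.09 to 0.28 on leaving out single libraries. The SD was 0.07 in the SCI-labelled and 0.42 in the control-labelled group.

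A further list gathered 9 miRNAs with a described role in excitability or synaptic strength, as miR-128 has. Of these, 3 were higher in the SCI-labelled group, 2 lower and 4 did not pass, with a median log2 fold change of 0.04 against -0.07 over all rows. That is 5 of 9 called, where 39.4% of all rows were called and 16.3% were called higher. Besides miR-218-5p and miR-129-5p, the higher one was miR-485-5p (log2 0.82), which targets the synaptic vesicle protein SV2A. The lower ones were miR-335-5p (-1.45) and miR-324-5p (-0.93), which targets a potassium channel. miR-132-3p and miR-138-5p, given above, miR-101a-3p (0.04) and miR-134-5p (-0.27), which limits dendritic spine growth, did not pass. The call of miR-485-5p was lost without SCI-labelled library 2 or 3 (edgeR adjusted p = 0.076 and 0.065), and that of miR-324-5p on leaving out any library but control-labelled 2 (0.057 to 0.16). The miR-324-5p call was also lost with upper quartile scaling (0.055), library totals alone (0.052), a minimum count of 3 (0.063), limma on log2 TPM (0.063 to 0.077) and the replicate block (0.071), 12 of 18 alternatives in all.

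The miR-27 list, whose seed overlaps that of miR-128-3p, went the other way. Of the 1679 RefSeq names, 2 had its seed UCACAGU, miR-27a-3p and miR-27b-3p. Other seeds close to that of miR-128-3p were not searched. miR-27a-3p and miR-27b-3p carry the first 8 bases of miR-128-3p, UCACAGUG, from their 2nd base on, so their seed, UCACAGU, is shifted by 1 base. The shared stretch is in capitals. miR-27a-3p lies on the plus strand at chr8:84208727-84208747 and miR-27b-3p on the plus strand at chr13:63300760-63300780, both GRCm38.

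miR-128-3p: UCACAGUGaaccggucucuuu

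miR-27a-3p: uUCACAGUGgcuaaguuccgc

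miR-27b-3p: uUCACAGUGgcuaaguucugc

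miR-27a-3p stood at 431, 412 and 538 CPM in SCI-labelled libraries 1, 2 and 3, against 858, 886 and 750.2 CPM in control-labelled libraries 1, 2 and 3 (log2 -0.85, SE 0.19, edgeR adjusted p = 0.0092). miR-27b-3p stood at 13036, 14025 and 14899 CPM in the SCI-labelled libraries and at 20278, 20271 and 20636 CPM in the control-labelled libraries (log2 -0.54, SE 0.16, adjusted p = 0.025). In both the groups did not overlap, as in 51.3% of all 614 rows, and in both the SCI-labelled group was lower. The call of miR-27a-3p was lost without SCI-labelled library 1 or 2 (0.053 and 0.069). That of miR-27b-3p did not survive leaving out control-labelled 1 (0.075) or each SCI-labelled library in turn (0.090 to 0.14), nor upper quartile scaling (0.10), no filter (0.089), a minimum count of 3 (0.069) or the replicate block (0.053).

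Of miRNAs outside the lists, 5 had the profile most like that of miR-128-3p over the 6 libraries. Likeness was the root mean square distance between log2 CPM profiles, each centred on its own mean, among 227 rows averaging at least 50 CPM. The 5 were miR-204-5p (distance 0.13), which is hosted by Trpm3, miR-543-3p (0.14), miR-1843a-5p (0.17), miR-330-5p (0.18) and miR-369-5p (0.19). The median distance of the candidates was 0.74. Of the neuronal list, miR-129-5p (0.23) and miR-218-5p (0.25) came nearest and miR-212-3p (1.22) and miR-124-3p (1.09) were farthest.

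All 5 were higher in the SCI-labelled group by 2.24-fold to 2.54-fold, with edgeR adjusted p-values of 0.00092 to 0.0044. They were chosen for their likeness to a miRNA that differed, so this is a description. miR-204-5p averaged 1749.7 ± 77.4 CPM in the SCI-labelled and 716 ± 149.7 CPM in the control-labelled libraries, and miR-543-3p 759.9 ± 121 CPM in the SCI-labelled and 301 ± 38.9 CPM in the control-labelled libraries (SD, n = 3 each). miR-543-3p and miR-369-5p come from the imprinted Dlk1-Dio3 region, whose miRNAs are abundant in brain.

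**Figure D4:**
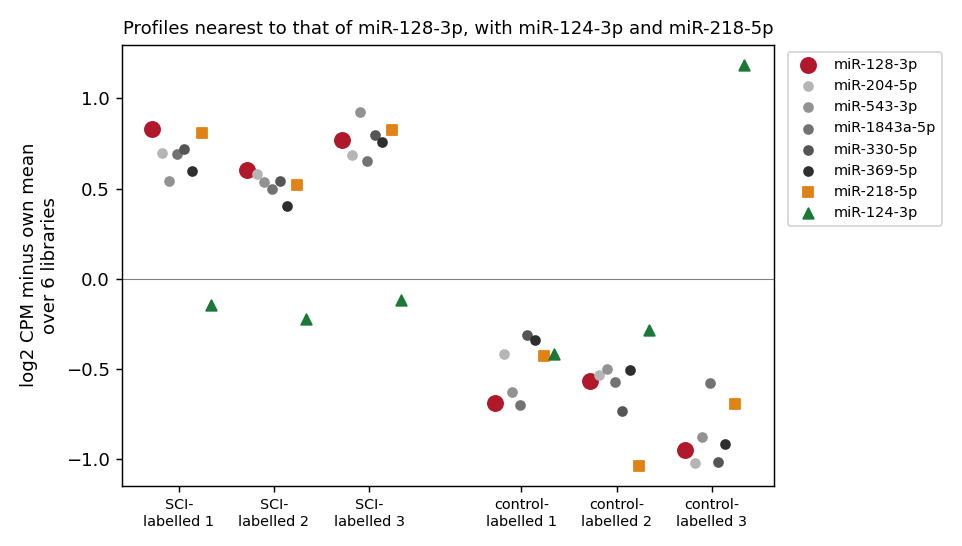
Log2 CPM of each miRNA minus its own mean over 6 libraries (y axis), by library (x axis), for miR-128-3p, the 5 rows nearest to it, miR-218-5p and miR-124-3p. The 5 rows lie above 0 in each SCI-labelled library and below 0 in each control-labelled one, as miR-128-3p does, while miR-124-3p is highest in control-labelled library 3.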

How the data were processed

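Small RNA libraries were made from 3 µg of total RNA per sample with the NEBNext small RNA kit, per the labels' protocols. The authors deposited read counts per mature miRNA, not normalized, together with columns named TPM. Each TPM value is its count over the column total, rescaled (largest deviation 2.74e-05); row length plays no part. Bowtie and mm10 are named in the submitters' processing notes. The miRBase release, the mismatches allowed and the handling of reads with several matches are not recorded in the labels used here.

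The counts were fitted with edgeR 4.0.16 under R 4.3.3. filterByExpr with a minimum count of 10 kept 614 rows, TMM scaled the libraries, and the robust quasi-likelihood test had group as its only term. Benjamini-Hochberg adjustment ran over all 614 rows, with calls at 0.05. An SE is the absolute log2 fold change divided by the root of its F statistic, and 95% intervals use the t quantile of the fit. Ratios and shares within a library were compared by exact permutation of samples, with 0.5 counts added for ratios to other miRNAs. limma 3.58.1 and DESeq2 1.42.0 served as alternatives. Steps were tested on simulated data. Sequences came from RefSeq (1175 of 1380 named rows matched) and host transcripts from GENCODE M21, both on GRCm38.

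The members and lists were chosen with earlier results of these data known. Named are all miR-128 rows, all tested members of the neuronal, excitability and miR-27 lists, and the 5 rows nearest in profile. The rule also named the most abundant members of the cell type lists, but these are given only as sums and counts over each list, since no result on miR-128 turns on a single one. miR-21a-5p and miR-223-3p were added to check the labels. No libraries agreed within sampling noise. Intervals of counts cover counting error only.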

Additional observations from a re-analysis of the deposited data

How the results depend on the processing

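The call of miR-128-3p held under all 18 alternatives, with a log2 fold change of 1.39 to 1.58 and adjusted p-values of 4.02e-10 to 0.0061. Neither 5p row passed under any of them, at -0.40 to -0.08 for miR-128-1-5p and 0.05 to 0.44 for miR-128-2-5p. The difference in 5p share was -0.050 with miR-128-1-5p alone and -0.030 with miR-128-2-5p alone, against -0.081 with both. The difference in log2 ratio to neuronal miRNAs was 0.90 against the list, 1.79 against miR-124-3p and 0.033 against miR-218-5p. Counts of calls moved most with single libraries: on leaving out each in turn, 54 to 152 rows were higher and 87 to 179 lower, 4 to 9 neuronal members were higher and 0 to 1 lower, and 27 to 71 hairpins passed the test of strands. Control-labelled library 3 gave the high end of the rows and hairpins when left out, and SCI-labelled library 3 the low end of the rows. The low end of the hairpins, 27, was reached on leaving out SCI-labelled library 1 and on leaving out SCI-labelled library 3. Without SCI-labelled library 1, 63 rows were higher. The lower neuronal member, miR-212-3p, was also lost with limma on log2(TPM + 1), log2(TPM + 0.1) and log2(TPM + 10), and with the replicate block, each leaving 0. Some fold changes near 0 changed sign. miR-124-3p was 0.0069 with limma voom and ran from -0.77 to 0.23 on leaving out libraries. miR-132-3p was 0.036 with upper quartile scaling, 0.00097 with a minimum count of 3 and -0.22 to 0.049 on leaving out libraries. miR-101a-3p was -0.054 with library totals alone, -0.027 with limma at each pseudocount and -0.012 to 0.21 on leaving out libraries. Why these values moved was not tested.

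With the replicate number as a replicate block, miR-128-3p had a log2 fold change of 1.47 (adjusted p = 0.0013), and 78 rows were higher and 112 lower. Same-numbered libraries did not deviate together (correlations -0.26, 0.17 and -0.18), so the numbers were not taken as pairs. These numbers are those of the sample titles, and the column headings of the control-labelled samples carry other numbers. Pairing by the heading numbers was not tested.

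With 3 libraries a group, no exact permutation test can go below 0.1. The 5p rows rest on 13 to 30 reads a library, so their fold changes are known only to about 1 log2 unit.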
